A study of Arabidopsis thaliana with 6 samples.

Results

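Arabidopsis plants of LNJ-OX and of jazD both stay stunted, and the comparison described here asked which transcripts these genotypes shared in their difference from the wild type Col-0. The 2 LNJ-OX and 2 jazD libraries were set together against the 2 Col-0 libraries, so all 6 libraries of the series entered, and 21374 of the 32833 genes listed had enough counts to be tested. The measured effect is the mean of the 2 genotypes' log2 fold changes, so a gene can reach it through both genotypes or through a very large change in 1 of them. Col-0 is the untransformed wild type. LNJ-OX plants carry, in the Col-0 background, a double CaMV 35S promoter that drives LITTLE NINJA (LNJ), a short FLAG-tagged isoform of the Arabidopsis NINJA family protein AFP2, and were homozygous in the T3 generation. The jazD line, also of the Col-0 ecotype, is a multiple loss-of-function mutant of JAZ genes. All plants were untreated, 21 days old by the labels and grown on soil in long days, and they were harvested without roots, whereas the methods of the study speak of leaves. The 35S promoter is active in most cells of a plant. Neither genotype separates a direct effect on transcripts from effects of a small body or of a different stage of growth.

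Jasmonic acid (JA) is a hormone of wounding and insect defence that also restrains growth and is required for stamens to mature. JAZ proteins hold back the transcription factors of this pathway, among them MYC2, by recruiting the adaptor NINJA and the corepressor TOPLESS. When JA is sensed, JAZ proteins are destroyed and the response begins. Loss of JAZ proteins or interference with the repressor complex can therefore switch the pathway on without a wound, and plants in that state are usually small.

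Levels are given as CPM, a gene's read count relative to the library total scaled by a TMM factor. Library totals ran from 10164591 to 15003290 counts, and 3 counts stood for between 0.189 and 0.315 CPM. A gene was called when the adjusted p of edgeR's quasi-likelihood test (Benjamini-Hochberg, over all genes tested) was under 0.01 and its mean log2 fold change was beyond 1 in size. The study describes the libraries as biological replicates, but the labels do not say whether replicates came from separate plantings, so p-values measure the spread between these libraries. Photosynthesis genes, the leaf markers, summed to between 75140 and 123703 CPM in every library. Root markers summed to at most 4.04 CPM and seed storage markers to at most 1.2 CPM. Flower genes were present in all 6 libraries, so the material also held shoot tissue other than leaves. AFP2, whose counts include reads of the transgene where it matches, stood at 8.19 and 11 CPM in Col-0, at 63.5 and 50 CPM in LNJ-OX and at 8.81 and 9.14 CPM in jazD. JAZ6 stood at 94.0 and 68.7 CPM in Col-0, at 91.0 and 82.7 CPM in LNJ-OX and at 5.24 and 4.05 CPM in jazD. Both checks match the labels, although these do not name JAZ6 as mutated. In whole shoots, fewer cells of a type and less RNA per cell cannot be told apart.

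The genotypes shared losses of transcript far more often than gains. Set against Col-0, 93 genes were higher (0.435% of those tested) and 303 genes were lower (1.42%) in LNJ-OX and jazD together. The median over all genes tested was close to 0 (-0.00094 on the log2 scale). Of the 303 lower genes, 289 were below both Col-0 libraries in all 4 libraries of the stunted genotypes, where 12.4% of all genes tested were. Of the 93 higher genes, 80 were above both Col-0 libraries in all 4, where 10.6% of all genes tested were. The call itself favours such separation, so these counts describe the called genes and are no separate evidence. The lower genes went from a median of 12.9 CPM in Col-0 to 1.51 CPM in the stunted genotypes, and 139 of them had a mean under 1 CPM there. The higher genes went from a median of 7.86 to 30.7 CPM. The calls rested heavily on Col-0 replicate 1: without that library 2 genes were called higher and 12 lower, and without Col-0 replicate 2 the numbers were 52 and 179. Among the 303 lower genes, 243 (80.2%) were higher in Col-0 replicate 1 than in replicate 2, against 49.8% of all genes tested, with a median ratio of 1.40.

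Losses were also more even between the genotypes than gains. Among the lower genes, 281 had a log2 fold change below -1 in LNJ-OX and in jazD alike, 22 in jazD alone and 0 in LNJ-OX alone. Among the higher genes, 51 were beyond 1 in both genotypes, 24 in LNJ-OX alone and 18 in jazD alone. Whether LNJ-OX and jazD themselves differed was tested in a second contrast of the same fit, and 2.06% of all genes differed at an adjusted p under 0.05. A large change in 1 genotype can pass both contrasts, so selection by the pooled call by itself raises the share that differs. Of the higher genes 46 differed (49.5%), with 26 of them higher in LNJ-OX and 20 higher in jazD. Of the lower genes 21 differed (6.93%), and all 21 were lower in jazD. Low counts make such a difference harder to detect. Among called genes with a mean of at least 5 CPM in the stunted genotypes, 17 of 94 lower genes differed (18.1%), against 2.36% of all 16242 genes at that level, and all 93 higher genes had that level. Of the genes called in the pooled comparison, 129 lower and 5 higher genes were called in neither genotype alone. When the 4 libraries were treated as 1 group, so that differences between the genotypes counted as error, 25 genes were called lower and 0 higher.

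**Figure D1:**
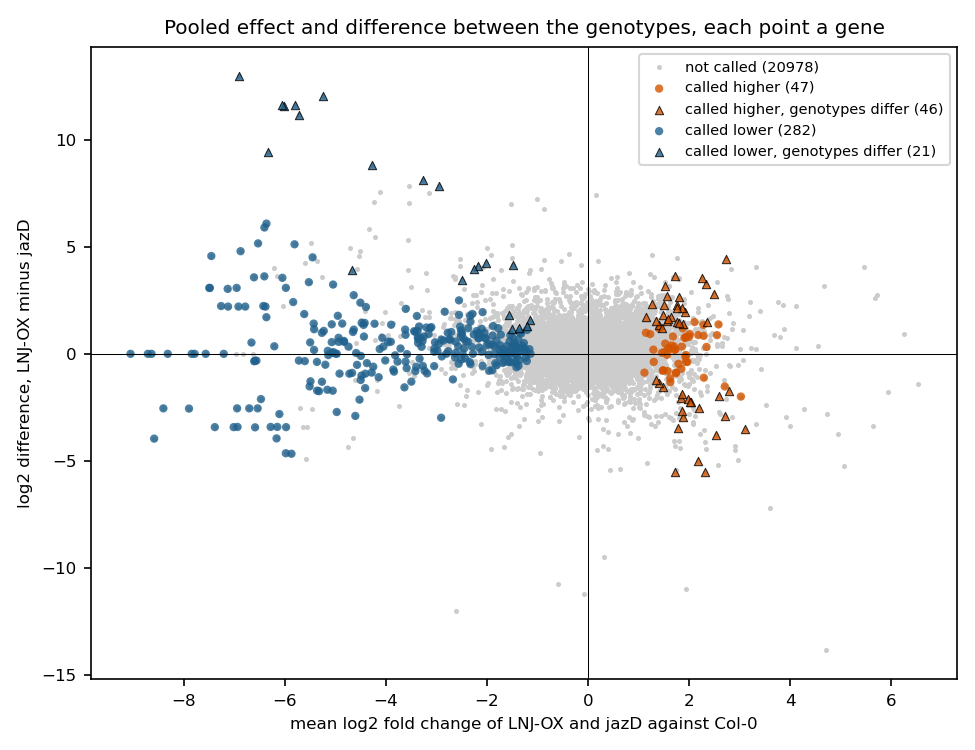
Each point is a gene, with the mean log2 fold change of LNJ-OX and jazD against Col-0 on the x axis and the log2 difference of LNJ-OX minus jazD on the y axis. Called lower genes (blue) lie mostly near a difference of 0 and only 21 are marked as differing (triangles), whereas 46 of the 93 called higher genes (orange) are, and fitted values of genes without counts in a genotype depend on a small prior count.

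Several of the genes with the largest shared losses had almost no counts in either stunted genotype. AAE11, an acyl-activating enzyme, stood at 18.9 and 11.8 CPM in Col-0, at 0 in both LNJ-OX libraries and at 0.105 and 0.189 CPM in jazD. It was at least 58.4-fold lower, with the stunted libraries taken at 3 counts each. AT3G05610, a pectin methylesterase family gene, stood at 18.8 and 7.42 CPM in Col-0, at 0 and 0.430 CPM in LNJ-OX and at 0 and 0.283 CPM in jazD. MLP168, a major latex protein-like gene, had the closest Col-0 values of the set, 35.4 and 35.1 CPM, against 0.527 and 1.12 CPM in LNJ-OX and 0.944 and 1.32 CPM in jazD. Separation of all libraries was part of the rule for naming these genes, and the distance from the Col-0 range was wide in these 3. The mean log2 fold change of MLP168 was -5.20 (SE 0.28, edgeR adjusted p 3.17e-05). AAE11 and MLP168 were called under each of the 15 other settings run, and AT3G05610 lost its call in 3 of them, among them the one without Col-0 replicate 1.

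The other 9 genes of this set included enzymes of walls and waxes, and 3 genes without a known function. LAC12, a laccase, stood at 27.7 and 21.1 CPM in Col-0, at 0.395 and 1.81 CPM in LNJ-OX and at 0.210 and 1.13 CPM in jazD. FAR6, a fatty acyl-CoA reductase that makes primary alcohols for waxes, had 17.6 and 14.7 CPM in Col-0 and between 0 and 2.58 CPM in the other 4 libraries. AT5G48140, annotated as a polygalacturonase of the pectin lyase-like family, had 11 and 9.30 CPM in Col-0 and between 0.105 and 0.688 CPM in the stunted genotypes. SP1L5 and AT5G37478 encode a SPIRAL1-like microtubule protein and a TPX2 family protein. Their log2 fold changes were -5.61 in SP1L5 (edgeR adjusted p 0.00124, SE 0.64) and -6.10 in AT5G37478 (edgeR adjusted p 0.00132, SE 0.71). AGP11, AT5G39880 and AT5G54095 completed the group with log2 fold changes of -5.04, -5.43 and -5.16, the last 2 without a known function. AT4G12917, a gene without a known function, was lower in both genotypes but not equally, with 26.7 and 16.2 CPM in Col-0, 8.49 and 5.51 CPM in LNJ-OX and 0 in both jazD libraries.

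**Figure D2:**
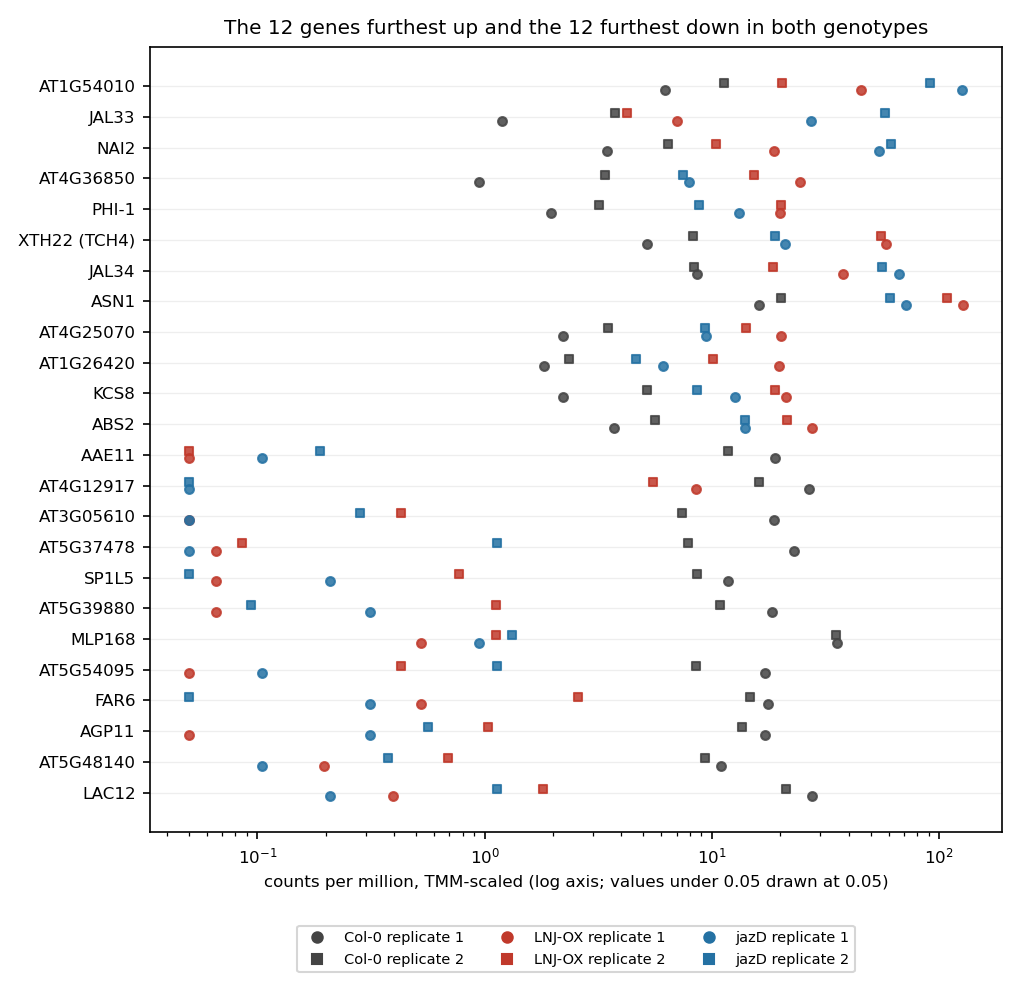
Level in each library (x axis, TMM-scaled CPM on a log scale) of the 12 genes with the largest shared gains (top) and the 12 with the largest shared losses (bottom), with circles for replicate 1 and squares for replicate 2. The genes were chosen so that the Col-0 points (black) lie outside the 4 points of LNJ-OX (red) and jazD (blue). Col-0 lies to the right among the losses and to the left among the gains, by a narrow margin in JAL33.

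Among all lists described, the one for the secondary cell wall held the most called losses. These thick, lignified walls are laid down in xylem vessels and fibres, and cellulose synthesis there depends on CESA4, CESA7 and CESA8, the subunits of a dedicated cellulose synthase complex. All 29 genes of a list of secondary wall and xylem genes were tested, and all 29 had a negative log2 fold change. In the list 13 were called lower and 0 higher, and 23 were below both Col-0 libraries in all 4 stunted libraries. Among all genes tested, 1.42% were called lower and 12.4% were below in that way. The list had a median log2 fold change of -2.45, with -2.13 in LNJ-OX and -2.80 in jazD, and 0 members differed between the genotypes. Summed over the list, Col-0 libraries held 811 and 540 CPM, LNJ-OX libraries 114 and 236 CPM, and jazD libraries 117 and 125 CPM, so the Col-0 mean was 4.57 times that of the stunted genotypes. Without Col-0 replicate 1 the number called fell to 0, without Col-0 replicate 2 it was 13, without jazD replicate 1 or 2 it was 8 or 9, and without LNJ-OX replicate 1 or 2 it was 14 or 19. When each genotype had to pass alone 8 were called, and as 1 group of 4 libraries 2.

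CESA4 stood at 80.5 and 41.3 CPM in Col-0, at 8.89 and 15.7 CPM in LNJ-OX and at 10.5 and 9.99 CPM in jazD. CESA7 stood at 60.7 and 32.1 CPM in Col-0, at 4.94 and 9.55 CPM in LNJ-OX and at 4.30 and 3.3 CPM in jazD. CESA8 stood at 61.3 and 28.9 CPM in Col-0, at 3.69 and 12 CPM in LNJ-OX and at 3.98 and 6.03 CPM in jazD. The 3 subunits thus ran in parallel, each with Col-0 replicate 1 the highest library and LNJ-OX replicate 2 the highest of the stunted ones. On the log2 scale CESA4 fell by 2.45 (SE 0.29), CESA7 fell by 3.15 (SE 0.31) and CESA8 fell by 2.86 (SE 0.41), with edgeR adjusted p of 0.00137, 0.000649 and 0.00320. The 250 bases upstream of their annotated starts are shown because the 3 genes moved together, from the RefSeq annotation of TAIR10.1, at chr5:17714140-17714389 on the plus strand, chr5:5741501-5741750 on the minus strand and chr4:10316887-10317136 on the minus strand, each written 5′ to 3′ on the strand of its gene.
CESA4: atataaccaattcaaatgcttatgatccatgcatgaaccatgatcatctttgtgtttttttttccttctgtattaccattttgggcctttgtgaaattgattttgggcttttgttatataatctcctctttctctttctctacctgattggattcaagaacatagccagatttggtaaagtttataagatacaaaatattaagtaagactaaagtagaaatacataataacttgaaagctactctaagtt
CESA7: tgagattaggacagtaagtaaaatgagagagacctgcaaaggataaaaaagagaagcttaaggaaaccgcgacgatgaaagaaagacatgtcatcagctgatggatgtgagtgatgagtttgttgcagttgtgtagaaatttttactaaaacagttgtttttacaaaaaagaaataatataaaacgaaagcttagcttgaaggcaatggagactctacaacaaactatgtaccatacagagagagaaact
CESA8: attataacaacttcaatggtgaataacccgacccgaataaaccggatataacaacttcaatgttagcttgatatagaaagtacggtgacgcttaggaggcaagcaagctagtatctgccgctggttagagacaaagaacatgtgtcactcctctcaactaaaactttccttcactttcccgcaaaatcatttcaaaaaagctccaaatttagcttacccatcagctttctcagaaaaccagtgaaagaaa
Neither strand of these 3 windows held an AC element of type I (letters ACCTACC), of type II (letters ACCAACC) or of type III (letters ACCTAAC), so that no letters stand in capitals. AC elements are known from promoters of the phenylpropanoid pathway and were chosen after the values were seen. The same held for all 13 called members, against 6.12% of the 27443 upstream windows of nuclear protein-coding genes. The G-box with the letters CACGTG, the GCC-box with the letters GCCGCC, the W-box in its forms TTGACC and also TTGACT, and the element TATCCA had no match in the 3 windows either.

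The other called members act on wall proteins, xylan and lignin. On the log2 scale FLA11 and FLA12, fasciclin-like arabinogalactan proteins of fibres, fell by 2.98 (SE 0.28) and fell by 3.61 (SE 0.41), with edgeR adjusted p of 0.000611 and 0.00124. FLA12 stood at 91.0 and 63.5 CPM in Col-0 against between 2.62 and 13.5 CPM in the stunted libraries. For xylan, the other main polymer of these walls, IRX9 and IRX15 of backbone synthesis fell by 3.36 and 3.58, GUX1 of glucuronic acid side chains fell by 2.72, and ESK1, an acetyltransferase, fell by 2.62 on the log2 scale. LAC4, a laccase that polymerises lignin, fell by 2.70, COBL4 fell by 2.80 and CTL2, a chitinase-like protein, fell by 3.42. The transcription factor MYB103 stood at 15.8 and 3.66 CPM in Col-0 and between 0.263 and 0.344 CPM in the other 4 libraries, a log2 change of -4.99 (edgeR adjusted p 0.00132, SE 0.59). Of the master regulators, NST1 and SND1 were also below both Col-0 libraries in all 4, at adjusted p of 0.0192 and 0.0105, and were not called. The vessel regulators VND6 and VND7, the protease genes XCP1 and XCP2 of vessel cells and the laccases LAC11 and LAC17 overlapped with Col-0 and were not called. In XCP1, XCP2, LAC11 and VND7, Col-0 replicate 2 was the higher Col-0 library.

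Further called genes outside the list, chosen after their values were seen, belong to the same processes. GAUT12 and GXMT1 act on xylan, UXS3 and UXS6 supply its sugar UDP-xylose, and DIR6 is a dirigent protein of lignan synthesis. Their log2 fold changes were -2.95 for GAUT12, -2.46 for GXMT1, -1.73 for UXS3, -2.00 for UXS6 and -2.62 for DIR6. UXS3 was abundant, at 178 and 145 CPM in Col-0, 46.2 and 54.4 CPM in LNJ-OX and 47.0 and 47.4 CPM in jazD, and its groups did not overlap (edgeR adjusted p 0.00126). WOX4, a homeobox gene of the vascular cambium, stood at 13.0 and 13.5 CPM in Col-0, at 4.87 and 4.73 CPM in LNJ-OX and at 2.2 and 3.11 CPM in jazD. By contrast, 0 of 8 genes of cellulose synthesis in primary walls and 0 of 26 cell cycle genes were called by edgeR, DESeq2 or limma-voom. Their medians were -0.06 and 0.04, and 0 and 8 genes had an unadjusted edgeR p under 0.05. Of the cell cycle genes, 7 were above both Col-0 libraries in all 4 stunted libraries and 0 were below. Among all genes tested 10.6% were above in that way.

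**Figure D3:**
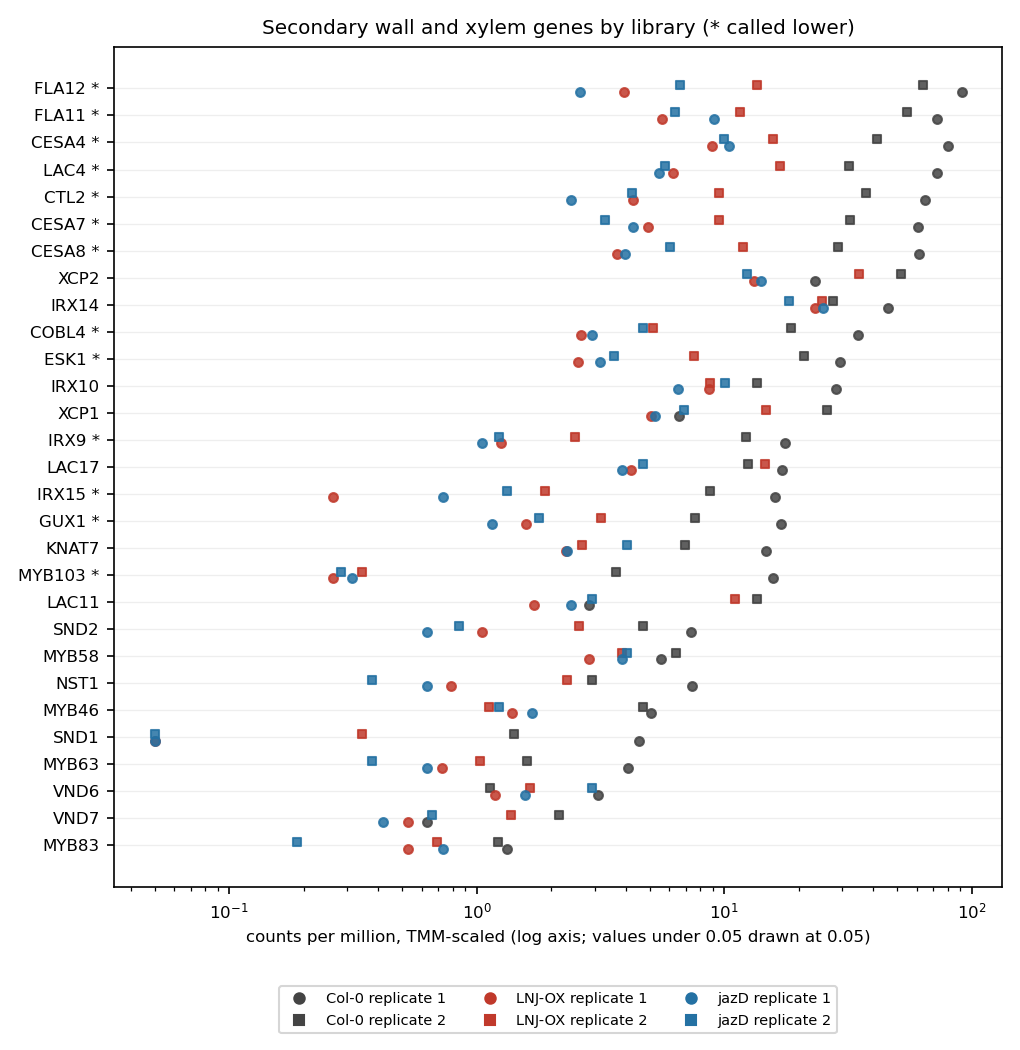
Level of the 29 secondary wall and xylem genes in each library (x axis, TMM-scaled CPM on a log scale), ordered by their Col-0 mean, with an asterisk on the 13 called lower. The 2 Col-0 points lie to the right of the other 4 in 23 genes, and replicate 1 of Col-0 is the rightmost point in each called gene.

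Mature pollen genes held the second largest number of called losses among the lists. Of 22 late pollen genes tested, 8 were called lower and 0 higher, where 1.42% of all genes tested were called lower. In the list 21 were negative, and the median was -2.34, with -2.07 in LNJ-OX and -2.09 in jazD. The summed level was 295 and 172 CPM in Col-0, 56.4 and 92.6 CPM in LNJ-OX and 58.3 and 79.9 CPM in jazD. AGP6 and AGP11, arabinogalactan proteins of pollen, stood at 24.9 and 15.7 CPM and at 17.1 and 13.5 CPM in Col-0. In the stunted libraries they lay between 0.922 and 4.47 CPM and between 0 and 1.03 CPM. RALF4 and RALF19, peptide signals of the pollen tube wall, fell by 3.31 (SE 0.57) and fell by 4.43 (SE 0.73) on the log2 scale, with edgeR adjusted p of 0.00802 and 0.00640. ANX2 and BUPS1, receptor kinases of the same pathway, and LRX11, a wall protein of the pollen tube, were called lower as well. ANX2 was at least 8.59-fold and LRX11 at least 17.7-fold lower, and BUPS1 fell by 2.90 on the log2 scale. The pollen receptor kinase gene PRK2 stood at 12.3 and 5.07 CPM in Col-0, at 0 and 1.29 CPM in LNJ-OX and at 0 and 0.0943 CPM in jazD. Without Col-0 replicate 1 the number called was 0, without replicate 2 it was 3, and with either jazD library left out it was 1. When each genotype had to pass alone 1 gene was called, and as 1 group of 4 libraries 0.

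The tapetum is the layer of the anther that feeds young pollen and builds its coat. Of 19 tapetum and pollen wall genes, 0 were called in either direction, 0 had an unadjusted edgeR p under 0.05, and the median was 0.00069. DESeq2 and limma-voom also called 0. The medians of the genotypes had opposite signs, 1.03 in LNJ-OX and -1.17 in jazD. Higher in LNJ-OX than in jazD were 3 members (MS2, ATA7 and ATA20), where 2.06% of all genes tested differed between the genotypes. The summed level was 135 and 251 CPM in Col-0, 157 and 584 CPM in LNJ-OX and 96.7 and 98.2 CPM in jazD, so LNJ-OX replicate 2 stood apart from the other 5 libraries. ATA20, a tapetum glycine-rich protein, reached 167 CPM in that library and lay between 14.7 and 57.8 CPM in the others. With LNJ-OX replicate 2 left out, 212 genes were called higher and 498 lower over all genes, and 10 late pollen genes were lower. Floral organ identity genes had 13 of 14 negative values, a median of -0.91 and 0 calls, with 9 at an unadjusted p under 0.05 and 0 calls by DESeq2 and limma-voom. Their sum was 179 and 200 CPM in Col-0, 110 and 193 CPM in LNJ-OX and 74.4 and 92.8 CPM in jazD. The part of flower number or flower age in the pollen genes was not tested.

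JA acts in stamens through the transcription factors MYB21, MYB24 and MYB57. MYB57 was called lower, at 11 and 11.1 CPM in Col-0, 1.38 and 0.861 CPM in LNJ-OX and 2.2 and 3.02 CPM in jazD, a log2 change of -2.67 (edgeR adjusted p 0.00132, SE 0.31). MYB24 differed between the genotypes, at 9.01 and 6.86 CPM in Col-0, 0.263 and 1.72 CPM in LNJ-OX and 6.71 and 13.2 CPM in jazD (edgeR adjusted p of the difference 0.0205). MYB21 overlapped with Col-0 in jazD and was not called. In flowers beyond the anther, SWEET9, the sugar exporter of nectaries, had 2.96 and 3.47 CPM in Col-0 and at most 0.210 CPM elsewhere, and was at least 12.2-fold lower. MYB98, a regulator of the synergid cells of the ovule that was chosen after its values were seen, stood at 23.6 and 11.9 CPM in Col-0 and between 1.12 and 2.36 CPM in the other 4. Across the lists for floral organs, stamens, carpels, tapetum and pollen, 66 of 82 members could be tested, with 10 called lower and 0 higher. Among all genes tested 1.42% were called lower.

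**Figure D4:**
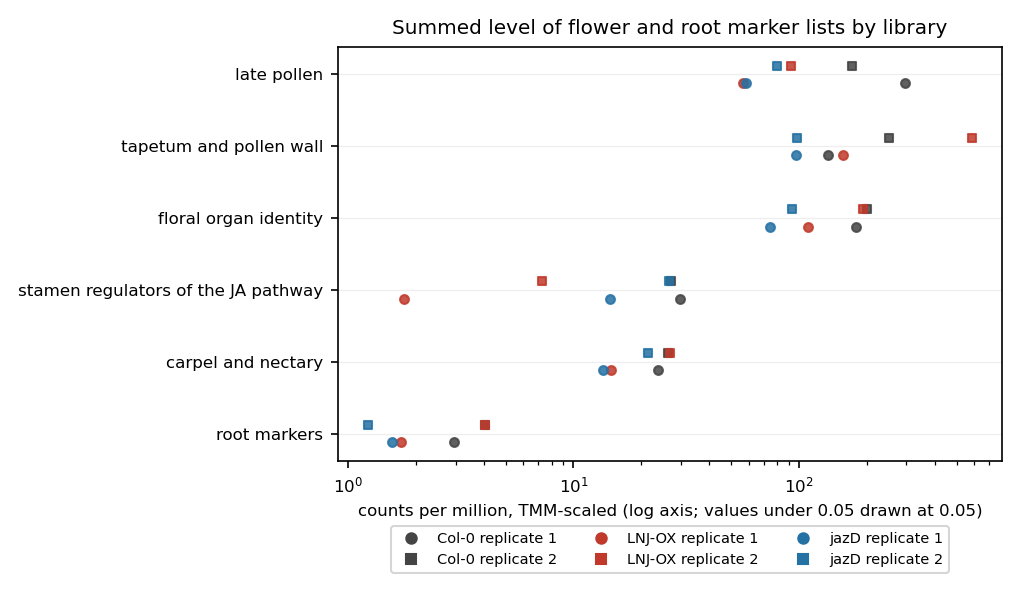
Summed level of 6 marker lists in each library (x axis, TMM-scaled CPM on a log scale). Late pollen sums are highest in the 2 Col-0 libraries (295 and 172 CPM), whereas the tapetum sum is highest in LNJ-OX replicate 2 (584 CPM).

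Shared gains were smaller, and the genes with the largest ones fell into a group higher in jazD and a group with nominally larger changes in LNJ-OX. The first held a gene of endoplasmic reticulum bodies, which store defence enzymes, and jacalin-related lectins. NAI2, required for these bodies to form, stood at 3.47 and 6.39 CPM in Col-0, at 18.8 and 10.4 CPM in LNJ-OX and at 54.4 and 61.6 CPM in jazD. JAL34 stood at 8.63 and 8.36 CPM in Col-0, at 37.7 and 18.7 CPM in LNJ-OX and at 66.3 and 56.3 CPM in jazD, a log2 gain of 2.29 (edgeR adjusted p 0.00234, SE 0.30). JAL33 was uneven, at 1.2 and 3.76 CPM in Col-0, 7.04 and 4.22 CPM in LNJ-OX and 27.4 and 57.6 CPM in jazD. AT1G54010, a GDSL lipase family gene, had the largest mean gain, 2.78 (SE 0.39, edgeR adjusted p 0.00300), from 6.24 and 11.4 CPM in Col-0 to 45.4 and 20.4 CPM in LNJ-OX and 126 and 91.1 CPM in jazD. NAI2, JAL33 and AT1G54010 were all higher in jazD than in LNJ-OX (edgeR adjusted p 0.0121, 0.0108 and 0.0495), and for JAL34 the difference had an adjusted p of 0.106.

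The other group held wall, growth and metabolism genes. PHI-1, an EXORDIUM-like gene linked to growth under low carbon, stood at 1.95 and 3.19 CPM in Col-0, at 20.0 and 20.2 CPM in LNJ-OX and at 13.2 and 8.77 CPM in jazD. XTH22, known as TCH4, is a touch-induced xyloglucan enzyme of the wall, and it stood at 5.17 and 8.26 CPM in Col-0, 58.6 and 55.3 CPM in LNJ-OX and 21.1 and 18.9 CPM in jazD. It was higher in LNJ-OX than in jazD (log2 difference 1.51, SE 0.26, edgeR adjusted p 0.0127). ABS2, a B3 domain repressor whose excess alters leaf and petal growth, stood at 3.72 and 5.63 CPM in Col-0, 27.5 and 21.4 CPM in LNJ-OX and 14.1 and 14.0 CPM in jazD. Lying apart from Col-0 in all libraries was part of the rule for naming these 3 genes. KCS8, of very-long-chain fatty acid synthesis, AT1G26420, a berberine bridge enzyme family gene, AT4G36850, a PQ-loop membrane protein gene, and AT4G25070, of unknown function, had log2 fold changes of 2.02, 2.11, 2.58 and 2.18. For these 4 genes and for PHI-1 and ABS2 the difference between the genotypes had adjusted p between 0.0785 and 0.284.

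ASN1, a marker of sugar starvation, was 1 of the 12 genes with the largest shared gains. Lying apart from Col-0 in all libraries was part of the rule for naming it. Plants short of sugar switch on asparagine synthetase ASN1, which stores nitrogen at a low carbon cost, together with a set of dark-inducible genes controlled by the energy-sensing kinase SnRK1. ASN1 stood at 16.1 and 20.2 CPM in Col-0, at 128 and 109 CPM in LNJ-OX and at 71.2 and 60.8 CPM in jazD, a log2 gain of 2.29 (edgeR adjusted p 0.000762, SE 0.24). Its upstream window, chr3:17441432-17441681 on the minus strand of TAIR10.1, is shown because it held the letters CACGTG of the G-box and the element TATCCA, given in capitals.
ASN1: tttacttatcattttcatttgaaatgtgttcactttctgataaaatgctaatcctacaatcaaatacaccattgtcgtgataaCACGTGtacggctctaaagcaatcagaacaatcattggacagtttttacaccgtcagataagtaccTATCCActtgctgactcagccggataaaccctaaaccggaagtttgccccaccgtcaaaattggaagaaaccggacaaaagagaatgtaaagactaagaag
The G-box lay from 167 to 162 bases and the TATCCA letters from 101 to 96 bases before the annotated start. Of the 3 sugar starvation genes called higher, ASN1 alone held the G-box or the TATCCA letters. Of all upstream windows, 6.49% held the G-box and 13.6% the TATCCA letters on either strand, so such matches are frequent and describe the window alone.

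Of 21 sugar starvation genes tested, 3 were called higher (ASN1, TPS9 and AT3G15450) and 1 was called lower (MIOX4). In the list 19 were positive and 13 were above both Col-0 libraries in all 4. Among all genes tested, 0.435% were called higher and 10.6% were above in that way. The list had a median of 0.97, with 1.25 in LNJ-OX and 0.90 in jazD. At an adjusted p under 0.05 and without a fold threshold, 11 of its genes were higher. For that looser measure the share over all genes is not given here. TPS9, a trehalose phosphate synthase-like gene beyond the fold threshold in LNJ-OX alone, stood at 8.88 and 7.98 CPM in Col-0, at 28.4 and 26.1 CPM in LNJ-OX and at 15.6 and 13.2 CPM in jazD. AT3G15450, an aluminium-induced protein family gene, rose more in LNJ-OX, at 148 and 112 CPM against 50.7 and 45.6 CPM in jazD and 17.6 and 28.2 CPM in Col-0. MIOX4, a myo-inositol oxygenase, stood at 10.6 and 3.66 CPM in Col-0, at 1.97 and 2.67 CPM in LNJ-OX and at 0.734 and 0.566 CPM in jazD, against the direction of the list. DIN10, SEN1, TPS8, TPS11 and BT2 missed the call at adjusted p between 0.0130 and 0.0261, with log2 fold changes of 1.52, 1.77, 1.12, 1.57 and 3.19. The number called higher was 0 without Col-0 replicate 1, 2 without Col-0 replicate 2, 1 without jazD replicate 1 and 7 without LNJ-OX replicate 2.

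Among genes of cell expansion, few passed the test. Expansins loosen walls, and auxin switches on SAUR genes whose products promote that loosening. Of 21 auxin response genes, 18 were negative, 13 were below both Col-0 libraries in all 4, and 1 was called lower. Among all genes tested, 12.4% were below in that way and 1.42% were called lower. The list had a median of -0.79, and 1 member differed between the genotypes and was higher in jazD. SAUR20 stood at 9.51 and 11.8 CPM in Col-0, at 2.83 and 3.79 CPM in LNJ-OX and at 3.25 and 3.39 CPM in jazD, a log2 change of -1.68 (edgeR adjusted p 0.00687, SE 0.28). The list had 0 lower calls when any library but LNJ-OX replicate 2 was left out. Its neighbours SAUR19, SAUR21, SAUR22, SAUR23 and SAUR24 are close copies, so reads may be split among them. They had log2 fold changes between -2.44 and -1.04 at adjusted p between 0.0261 and 0.140. GH3.3 and GH3.6, which conjugate auxin to amino acids, were above Col-0 in all 4 libraries at adjusted p of 0.0244 and 0.0396, not called.

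Of 11 alpha-expansins, EXPA4 was called lower, at 108 and 97.4 CPM in Col-0, 33.0 and 54.7 CPM in LNJ-OX and 28.7 and 35.5 CPM in jazD (log2 fold change -1.46, SE 0.23, edgeR adjusted p 0.00513). EXPA11 and EXPA15 had log2 fold changes of -1.13 and -1.44 at adjusted p of 0.0242 and 0.0148, while EXPA1 was above both Col-0 libraries in all 4. PRE1, a small helix-loop-helix protein that promotes cell elongation, was the 1 called gene of 15 in the brassinosteroid list, at 10.8 and 15.4 CPM in Col-0, 3.55 and 3.44 CPM in LNJ-OX and 4.61 and 4.81 CPM in jazD (log2 fold change -1.69, SE 0.26, edgeR adjusted p 0.00491). Of 13 genes of wall sensing and the EXORDIUM family, 12 were positive and 2 were called higher, PHI-1 and LRX3. LRX3, an extensin-like protein that monitors the wall with the kinase FERONIA, stood at 24.9 and 25.6 CPM in Col-0, at 77.8 and 92.1 CPM in LNJ-OX and at 79.0 and 64.5 CPM in jazD, a log2 gain of 1.63 (edgeR adjusted p 0.00243, SE 0.22). The wall sensing list had 0 higher calls without Col-0 replicate 1 and 1 without jazD replicate 1. Of the 20 XTH genes tested, XTH22 was the 1 called. Over all genes tested, 0.435% were called higher and 1.42% lower.

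Of 21 flowering time genes tested, 1 was called, TEM1, a TEMPRANILLO gene that represses flowering. TEM1 stood at 22.8 and 19.7 CPM in Col-0, at 72.9 and 46.4 CPM in LNJ-OX and at 48.3 and 66.9 CPM in jazD, a log2 gain of 1.46 (edgeR adjusted p 0.00890, SE 0.26). TEM2 and SMZ, a repressor of the AP2 family, lay above Col-0 in all 4 libraries, with log2 fold changes of 0.99 and 2.04 at adjusted p of 0.0271 and 0.0112. FT, the mobile flowering signal that TEM proteins repress, stood at 3.02 and 2.63 CPM in Col-0 and between 0.566 and 1.15 CPM in the other 4, with a log2 fold change of -1.72 (SE 0.47) at an edgeR adjusted p of 0.0606. FT was therefore apart in every library but not called. Over the whole list 9 genes were positive and 12 negative. Over all genes tested, 0.435% were called higher.

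Of the 4 genes called higher in the JA and SA lists, 3 were beyond the fold threshold in 1 genotype alone. Of 23 JA genes, LOX4 and ORA59 were called higher, where 0.435% of all genes tested were. Positive values were found in 18 of the 23, and 6 were above both Col-0 libraries in all 4. Among all genes tested 10.6% were above in that way. DESeq2 called 7 JA genes higher and limma-voom 2. The medians of this list were 0.23 in LNJ-OX and 1.46 in jazD. Between the genotypes 4 members differed, all higher in jazD, where 2.06% of all genes tested differed. LOX4, a lipoxygenase of JA synthesis, rose in both, from 12.7 and 8.45 CPM in Col-0 to 22.9 and 22.3 CPM in LNJ-OX and 44.8 and 32.9 CPM in jazD (log2 fold change 1.48, SE 0.25, edgeR adjusted p 0.00712). ORA59, an ERF factor of the JA and ethylene branch, was called through jazD alone, at 2.14 and 2.44 CPM in Col-0, 1.97 and 1.64 CPM in LNJ-OX and 56.2 and 61.9 CPM in jazD. LOX3, CYP94B3 and TAT3 were above Col-0 in all 4 libraries at adjusted p of 0.0146, 0.0317 and 0.0231. Of 21 genes of salicylic acid (SA), a hormone of defence against pathogens, ICS1 and CBP60g were called higher through LNJ-OX. ICS1, which makes the precursor of SA, stood at 19.2 and 24.3 CPM in Col-0, at 137 and 132 CPM in LNJ-OX and at 30.6 and 25.1 CPM in jazD. Of the 21 SA genes, 20 were positive and 7 were above both Col-0 libraries in all 4. DESeq2 called 7 SA genes higher and limma-voom 3. In this list 10 members differed between the genotypes, all higher in LNJ-OX, and the medians were 1.86 in LNJ-OX and 0.29 in jazD. The SA list had 0 higher calls when jazD replicate 1 or jazD replicate 2 was left out, and 1 when Col-0 replicate 1 or Col-0 replicate 2 was. The JA list had 0 without Col-0 replicate 1, 6 without LNJ-OX replicate 2, and 1 when Col-0 replicate 2, jazD replicate 1 or jazD replicate 2 was left out.

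Of 12 JAZ genes tested, JAZ10 was called higher and JAZ2 and JAZ6 lower, and all 3 had a log2 fold change beyond 1 in jazD alone. Which JAZ genes carry mutations in jazD is not given in the labels, so transcripts of mutated genes may be among these values. All 16 touch and wounding genes tested were positive, with a median of 0.85, 1.29 in LNJ-OX and 0.56 in jazD. Above both Col-0 libraries in all 4 lay 10, where 10.6% of all genes tested did. Between the genotypes 3 differed, all higher in LNJ-OX, where 2.06% of all genes tested differed. DESeq2 called 4 higher, limma-voom 1 and edgeR 1. Over all genes tested edgeR called 0.435% higher and 1.42% lower. The edgeR call was CML12 (known as TCH3), a calmodulin-like gene. It stood at 79.3 and 103 CPM in Col-0, at 401 and 372 CPM in LNJ-OX and at 159 and 143 CPM in jazD.

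The most uneven pooled calls came from 1 genotype. AT3G23550, a MATE transporter gene, and MYB47 were called higher although LNJ-OX stood below or within the Col-0 range. MYB47 had 4.73 and 1.88 CPM in Col-0, 3.03 and 1.89 CPM in LNJ-OX and 120 and 108 CPM in jazD. RLP11, a receptor-like protein, had 1.07 and 0.751 CPM in Col-0, 29.5 and 28.2 CPM in LNJ-OX and 0.629 and 1.98 CPM in jazD. On the lower side AT5G49440, AT5G45490, AT5G55790 and AT5G49640 lie on chromosome 5 and had 0 counts in both jazD libraries. AT5G49440 stood at 129 and 92.5 CPM in Col-0 and at 93.5 and 72.5 CPM in LNJ-OX. Chromosome 5 held 23% of all genes tested, 80 of the 303 lower genes (26.4%) and 19 of the 93 higher genes (20.4%). Of the 22 lower genes carried by jazD alone, 17 lie on chromosome 5, and 8 of these had 3 counts or fewer in both jazD libraries. Without the 9 called genes of chromosome 5 that were this low in jazD and not in LNJ-OX, 294 genes were lower.

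**Figure D5:**
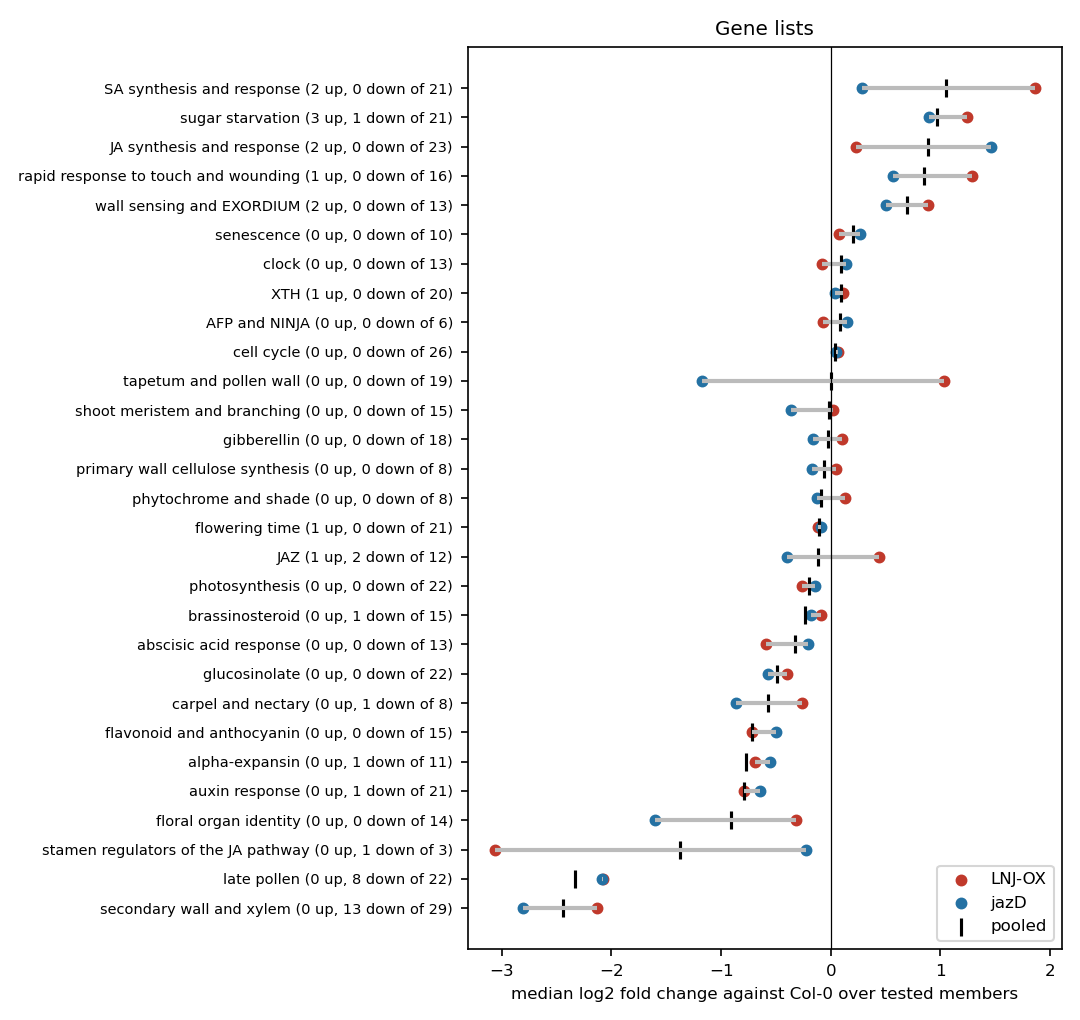
Median log2 fold change against Col-0 over the tested members of each list, for LNJ-OX (red), jazD (blue) and the pooled comparison (black bar), with the numbers called up and down beside each name. Secondary wall (-2.45) and late pollen (-2.34) lie furthest to the left with both genotypes on the same side, whereas the genotypes' medians for the tapetum and JAZ lists lie on opposite sides of 0.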

How the data were processed

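RNA of 6 libraries (Col-0, LNJ-OX and jazD, 2 each) was analysed. The authors deposited read counts per gene for each library. The submitters' processing notes name Trim Galore 0.6.3, HISAT2 2.1.0, HTSeq 0.9.1 and TAIR10, and the strand setting is not given in the sources used here, so overlapping, antisense or near-identical genes are uncertain. Tables of the authors' own limma comparisons (fold changes, p-values and mean log2 expression) were not used.

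Counts were fitted in R 4.3.3 with edgeR 4.0.16 (filterByExpr by group, TMM, glmQLFit, glmQLFTest), with 1 coefficient per genotype over all 6 libraries. The pooled contrast was the mean of LNJ-OX and jazD minus Col-0, and LNJ-OX minus jazD was a second contrast. P-values were adjusted by Benjamini-Hochberg over the 21374 genes tested. Groups with at most 3 counts in each library gave lower bounds of a fold, taken at 3 counts per library, which cover counting error only. Libraries of a genotype differed by more than sampling noise (chi-square per degree of freedom 42.8, 16.8 and 14.8). The procedure was tested on simulated data.

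The comparison, the 31 lists (505 genes) and the rules were chosen with earlier results of these data known, so they are descriptions of these libraries. Counts in lists are to be read against shares over all genes tested, also where a paragraph does not repeat them. These were 0.435% called higher, 1.42% called lower, 10.6% above and 12.4% below both Col-0 libraries, and 2.06% differing between the genotypes. For an unadjusted p under 0.05 the share over all genes is not given here. Genes named were list members, the 12 genes in each direction with the largest change among calls beyond 1 in both genotypes, apart in all libraries and at 10 CPM or more in the higher side, and the 4 most uneven calls in each direction. Genes outside this rule are said to be so. Symbols and sequences are from RefSeq (TAIR10.1), whose nuclear chromosomes are those of TAIR10. Of 32833 identifiers 32548 were found in its gene table. Alternatives were other scalings and filters, DESeq2 1.42.0, limma-voom (limma 3.58.1), glmTreat, other thresholds, a replicate block, 1 group of 4 libraries, and each library left out.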

Additional observations from a re-analysis of the deposited data

Results flagged for a closer look

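Each gene here was called in the pooled comparison, and its change differed between LNJ-OX and jazD in the direct contrast of the genotypes (edgeR adjusted p under 0.05). The log2 difference is LNJ-OX minus jazD, so a negative value means a higher level in jazD.

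Of the genes listed, 7 were higher in jazD. The log2 difference was -5.53 for AT3G23550, -5.51 for MYB47, -5.02 for ORA59, -2.90 for JAL33, -1.98 for NAI2, -1.89 for JAZ10 and -1.71 for AT1G54010. Others were higher in LNJ-OX, with 2.27 for ICS1, 2.14 for CBP60g, 1.51 for XTH22, 1.36 for CML12 and 1.43 for the starvation gene AT3G15450. The receptor-like gene RLP11 differed by 4.43. JAZ2 and JAZ6 differed by 4.17 and 4.22, through low counts in jazD.

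Genes with 3 counts or fewer in both jazD libraries have lower bounds instead. LNJ-OX was at least 278-fold higher for AT5G49440, at least 145-fold for AT5G45490, at least 107-fold for AT5G55790, at least 106-fold for AT5G49640 and at least 23.4-fold for AT4G12917. The first 4 lie on chromosome 5. The cause was not tested for any of these genes.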

How the results depend on the processing

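The pooled comparison gave 93 higher and 303 lower genes, of which 67 differed between the genotypes. Leaving out 1 library gave between 2 and 212 higher, 12 and 498 lower, and 10 and 101 differing genes, and a lone library was then assumed to vary like the others. The lowest values came without Col-0 replicate 1 and the highest without LNJ-OX replicate 2. Without jazD replicate 1 there were 17 higher and 111 lower genes, and without jazD replicate 2 there were 27 and 148. DESeq2 gave 335 higher, 503 lower and 208 differing genes, no filter gave 500, 842 and 410, and an adjusted p under 0.05 gave 347 and 663. Testing each gene against a fold threshold instead of 0 gave 3 and 109, calls in each genotype alone gave 3 and 66, and 1 group of 4 libraries gave 0 and 25. With DESeq2 40% and with no filter 37.3% of calls were higher genes, against 23.5%. The other scalings, filters and limma-voom stayed within 1.5 times of these counts. Of the 32 genes named by size or unevenness, 27 lost their call without Col-0 replicate 1 and 28 as 1 group, and 0 changed direction.

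With the replicate number as a block, 247 genes were higher, 547 lower and 162 differed. The numbers were not shown to pair the libraries: deviations of replicate 1 correlated across genes at 0.09, 0.06 and -0.0092 between genotypes. Genes with a mean under 1 CPM were close to the floor of 3 counts, which limits the size of losses that could be seen. Taking such genes at that floor moved the median of the lower genes from -3.37 to -3.10.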

Other observations

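Several gene groups showed no shared call or a weak one. Flavonoid and anthocyanin genes, which make pigments and sunscreens, had a negative value in 15 of 15 members with a median of -0.72. Of these genes 0 were called by edgeR, DESeq2 or limma-voom, and 8 had an unadjusted edgeR p under 0.05. In this list 7 lay below both Col-0 libraries in all 4, where 12.4% of all genes tested did. Glucosinolate genes, for mustard oil defence, were negative in 16 of 22 with a median of -0.49 and 0 calls by edgeR or limma-voom, against 1 higher and 4 lower by DESeq2. Of the 22, 11 had an unadjusted edgeR p under 0.05, and with scaling to library totals 14 were negative. Within them MYB29, a regulator of the aliphatic branch, stood at 87.0 and 72.7 CPM in Col-0, 37.1 and 48.3 CPM in LNJ-OX and 34.0 and 38.8 CPM in jazD (edgeR adjusted p 0.0149). CYP79B3, of the indolic branch, differed between the genotypes, at 47.5 and 70.8 CPM in Col-0, 58.7 and 40.5 CPM in LNJ-OX and 165 and 181 CPM in jazD.

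In the shoot meristem list 0 of 15 genes were called by edgeR or limma-voom and 2 were lower by DESeq2, with 3 at an unadjusted edgeR p under 0.05. The homeobox genes STM and KNAT1, which keep meristem cells undifferentiated, were below Col-0 in all 4 libraries, with KNAT1 at 105 and 78.2 CPM in Col-0, 39.6 and 57.4 CPM in LNJ-OX and 16.9 and 34.1 CPM in jazD (edgeR adjusted p 0.0161). Gibberellin, abscisic acid, shade, clock and senescence lists had 0 edgeR and limma-voom calls, with 6, 3, 0, 3 and 3 genes at an unadjusted edgeR p under 0.05 and medians between -0.32 and 0.21. DESeq2 called 1 senescence gene higher and 0 in the other 4 of these lists. The photosynthesis list had 0 calls by any of the 3 tools, 0 genes at an unadjusted p under 0.05 and a median of -0.20.

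Some called genes outside the lists, chosen after their values were seen, concern nutrients and scent. NRT1.8, a nitrate transporter of the xylem, stood at 2.08 and 1.69 CPM in Col-0, 10.7 and 10.9 CPM in LNJ-OX and 11.1 and 6.22 CPM in jazD (log2 fold change 2.34, SE 0.35, edgeR adjusted p 0.00396). TPS14 and TPS21, terpene synthases, were lower in both genotypes. TPS14 stood at 28.1 and 20.6 CPM in Col-0, 2.57 and 1.29 CPM in LNJ-OX and 2.73 and 4.05 CPM in jazD, and TPS21 was at least 19.6-fold lower.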
